A study of Mus musculus with 8 samples.

Results

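Genes that act on or after cytosine deamination in DNA were examined in marginal zone B cells (MZBs). They are the deaminases Apobec1 and Apobec3, the uracil glycosylase Ung, the mismatch repair genes Msh6 and Exo1, the translesion polymerases Polh and Rev1, and the break repair adaptor Trp53bp1. The 8 were chosen by symbol, with earlier results of these data known, and all were found among the 23997 genes of the table. MZBs are splenic B cells that lie along the marginal sinus and respond early to antigen in the blood. The labels describe 8 libraries of MZBs from C57BL/6 mice, 4 of genotype ACKR3+ and 4 of genotype ACKR3-, titled by presence or absence of GFP, with no age stated. ACKR3 is an atypical receptor for the chemokine CXCL12. The table holds no value per library but 1 estimated fragment count per gene, with a variance, for each of 2 conditions called q2 and q1. Neither name is tied to ACKR3+ or ACKR3- by a label, so values are given by column and neither column is assigned to a genotype.

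In activated B cells cytosines in immunoglobulin genes are deaminated to uracil. The uracil is then read in several ways. It is copied as it stands, removed by the glycosylase UNG, or recognised as a mismatch by a complex that contains MSH6. After mismatch recognition EXO1 resects the strand, and error-prone polymerases such as polymerase eta fill the gap. Together these routes give somatic hypermutation. Breaks made in switch regions are joined during class switching, for which 53BP1, encoded by Trp53bp1, protects the ends from resection.

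Over the whole table the columns were close. The counts summed to 16653774 fragments in q2 and 16877559 in q1, and the depth of each library is unknown. Ackr3, the gene that names the genotypes, had 149 fragments in q2 and 1030 in q1, a log2 ratio of -2.78 ± 0.27. This difference bears on which column is which genotype, but it was not used to assign them. MZB and B cell identity genes were abundant in both columns: Cr2, encoding complement receptor CD21, had 70851 fragments in q2 and 81167 in q1, and Ms4a1, encoding CD20, had 35325 in q2 and 37926 in q1. Ratios are log2 of q2 over q1 after adding 1 fragment to each, and were computed for 9582 genes, those that reached 100 fragments in q2 or in q1. Their median was 0.00 and their middle 50% lay between -0.10 and 0.10. Each value after ± is an SD taken from the deposited variances. With 1 value per condition there is no replicate check, no difference was tested and no p-value is given.

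The 8 genes fell into those near equal in the columns and those with more fragments in q2. Exo1, Ung, Polh and Msh6 were 1.38 to 1.91 times as high in q2 as in q1, whereas Apobec1, Apobec3, Rev1 and Trp53bp1 were within 1.1-fold. None of the 8 was at least 2-fold apart, a difference seen for 2.28% of all genes compared. At a 1.5-fold rule, Exo1 was the 1 gene past it, beside 3.39% of all genes higher in q2 by that much and 1.58% higher in q1. The median log2 ratio of the 8 was 0.27, beside 0.00 for all genes compared; 6 were higher in q2 and 2 in q1, against 50.2% of all genes higher in q2 and 49.8% in q1. All 8 reached 100 fragments, Exo1 through q2 alone, so the minimum itself favoured a difference for that gene. In bulk RNA, a smaller share of cells that express a gene and less RNA per cell cannot be told apart.

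**Figure D1:**
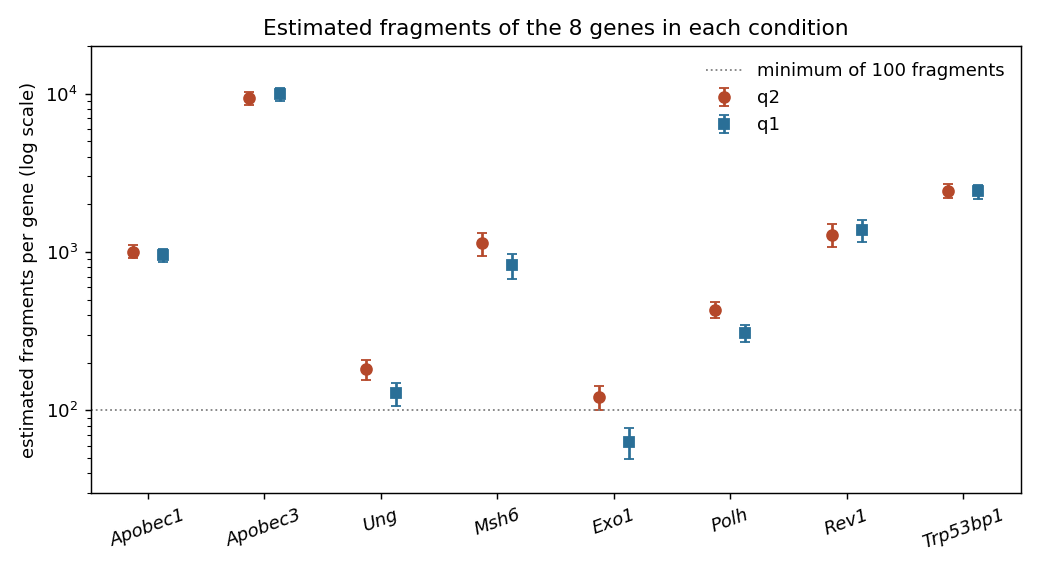
Estimated fragments (log scale) of the 8 genes in q2 (circles) and q1 (squares), with bars of 1 deposited SD; the dotted line is the minimum of 100 fragments. Apobec3 lies highest, at 9347 in q2 and 9886 in q1, and the bars do not overlap for Exo1, Ung and Polh.

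The cytidine deaminases of the group did not differ by more than their error. Apobec3 (chromosome 15, 79891659 to 79915906, GRCm38, forward strand), a restriction factor that deaminates retroviral DNA, had 9347 ± 838 fragments in q2 and 9886 ± 890.0 in q1, a log2 ratio of -0.08 ± 0.18. It alone supplied 58.6% of the fragments of the 8 genes in q2 and 62.0% in q1. Apobec1 (chromosome 6, 122577792 to 122602444, reverse strand), which edits the apolipoprotein B transcript, had 1007 ± 96.2 fragments in q2 and 957 ± 91.6 in q1, a log2 ratio of 0.07 ± 0.19. Both ratios were smaller than their SD. Apobec2, with 15.5 fragments in q2 and 21.3 in q1, and Apobec4, with 0.21 in q2 and 0.27 in q1, lay under the minimum and were named after their values were seen.

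Ung, which encodes the main nuclear and mitochondrial uracil glycosylase, had more fragments in q2. The gene (chromosome 5, 114130386 to 114139323, forward strand) had 182 ± 27.1 fragments in q2 and 128 ± 21.4 in q1, which is 0.50 ± 0.32 on the log2 scale, or 1.42-fold. This was 1.57 of its SD, and 6.12% of the genes compared were at least as far apart. The other glycosylases that can remove uracil from DNA had smaller ratios, and all 3, like Ung, lay within 2 SD of 0. Smug1 had 290 fragments in q2 and 260.1 in q1, at 0.15 ± 0.27, and Tdg had 206 in q2 and 217 in q1, at -0.07 ± 0.55. Mbd4 had 941 fragments in q2 and 730.3 in q1, at 0.37 ± 0.20, or 1.81 of its SD, further from 0 by that measure than Ung. These 3 were named after their values were seen.

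Msh6 (chromosome 17, 87975062 to 87990892, forward strand), which encodes a mismatch-binding protein, had 1134 ± 190.4 fragments in q2 and 824 ± 144 in q1, which is 0.46 ± 0.35 on the log2 scale, or 1.38-fold. Exo1 (chromosome 1, 175880581 to 175913489, forward strand), the exonuclease that removes the strand with the mismatch, had 122 ± 20.8 fragments in q2 and 63.4 ± 13.8 in q1. Its log2 ratio was 0.93 ± 0.40, a 1.91-fold difference with an exact 95% counting interval of 1.42 to 2.67. That interval covers counting error alone and leaves out any spread between libraries. An interval of 2 deposited SD to either side is wider, from 0.14 to 1.72 on the log2 scale. Exo1 was the scarcest of the 8 and the furthest apart, and the only 1 of the 8 past 2 deposited SD, as were 4.15% of all genes on the q2 side and 2.11% on the q1 side. Of all genes compared, 2.54% were at least as far apart as Exo1 and 6.90% as Msh6.

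Of the translesion polymerases, Polh had more fragments in q2 and Rev1 was near equal in the columns. Polh (chromosome 17, 46171355 to 46202645, reverse strand), encoding polymerase eta, which makes mutations at A and T bases in hypermutating B cells, had 431 ± 49.6 fragments in q2 and 309 ± 38.8 in q1. Its log2 ratio was 0.48 ± 0.25, a 1.39-fold difference and 1.96 of its SD. Rev1 (chromosome 1, 38052786 to 38129801, reverse strand), a deoxycytidyl transferase that also serves as a scaffold for other polymerases, had 1289 ± 206 fragments in q2 and 1367 ± 214 in q1, at -0.09 ± 0.32. Polymerase zeta, which REV1 recruits, was near equal in both of its named subunits, with Rev3l at 0.08 ± 0.18 and Mad2l2, also called REV7, at -0.01 ± 0.29; both were named after their values were seen.

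Trp53bp1 (chromosome 2, 121193281 to 121271407, reverse strand) was the most even of the 8. It had 2431 ± 243 fragments in q2 and 2413 ± 242 in q1, a log2 ratio of 0.01 ± 0.20, and 94.8% of the genes compared were further apart or as far. An interval of 2 SD to either side of this value runs from -0.40 to 0.42, so a difference of up to that size lies within these errors. Rif1, an effector that 53BP1 recruits to breaks, had 1999 fragments in q2 and 1698 in q1, at 0.24 ± 0.18. Fam35a, a component of the shieldin complex that acts downstream, had 444 fragments in q2 and 475 in q1, at -0.10 ± 0.23. Both were named after their values were seen.

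**Figure D2:**
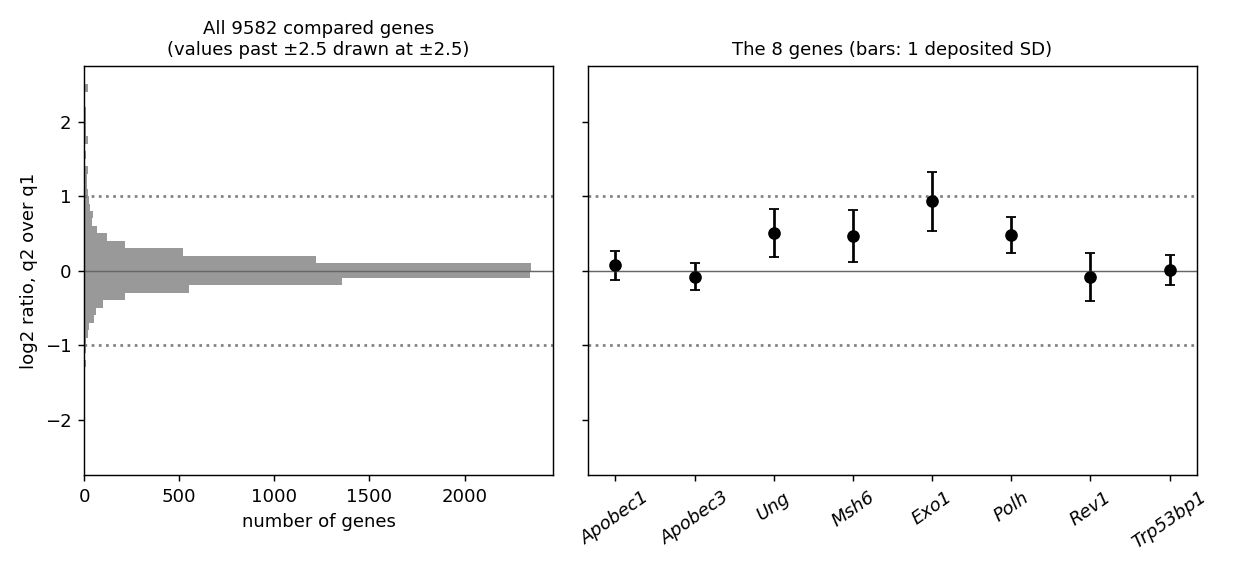
Left, histogram of the log2 ratio of q2 over q1 for the 9582 genes compared; right, the ratio of each of the 8 genes with bars of 1 deposited SD, and dotted lines at 2-fold. Exo1 is highest at 0.93, with Ung, Polh and Msh6 between 0.46 and 0.50, and the other 4 lie between -0.09 and 0.07.

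Promoter windows were available from RefSeq (GRCm38.p6) for 7 of the 8 genes, all but Exo1, whose promoter was therefore not searched. Each runs from 250 bases before to 50 after an annotated start, with a window for each of 2 starts of Apobec3. Those of Msh6, Ung and Polh are shown because these genes had similar ratios, from 0.46 to 0.50, and that of Rev1 as the near-equal polymerase. They run 5′ to 3′ on the strand of the gene, and capitals mark every match, on either strand, to the motifs searched: E2F sites spelled TTTCCCGC, TTTGGCGC, TTTCGCGC or TTTGCCGC, the CCAAT box (CCAAT), the GC box (GGGCGG), the E-box CACGTG and the cell cycle homology region TTTGAA.
Msh6, chr17:87974800-87975099, forward strand: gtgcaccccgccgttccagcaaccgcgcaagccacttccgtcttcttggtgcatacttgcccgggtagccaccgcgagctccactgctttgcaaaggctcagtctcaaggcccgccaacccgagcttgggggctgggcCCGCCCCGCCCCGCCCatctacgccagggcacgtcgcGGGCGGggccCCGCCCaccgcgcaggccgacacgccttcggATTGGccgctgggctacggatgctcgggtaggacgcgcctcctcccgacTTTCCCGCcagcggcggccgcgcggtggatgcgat
Ung, chr5:114130185-114130484, forward strand: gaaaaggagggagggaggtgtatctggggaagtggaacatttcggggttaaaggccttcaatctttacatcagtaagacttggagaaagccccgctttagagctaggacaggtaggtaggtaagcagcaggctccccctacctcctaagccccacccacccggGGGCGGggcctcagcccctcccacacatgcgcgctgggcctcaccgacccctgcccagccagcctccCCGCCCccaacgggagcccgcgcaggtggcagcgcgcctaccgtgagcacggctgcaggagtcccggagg
Polh, chr17:46202592-46202891, reverse strand: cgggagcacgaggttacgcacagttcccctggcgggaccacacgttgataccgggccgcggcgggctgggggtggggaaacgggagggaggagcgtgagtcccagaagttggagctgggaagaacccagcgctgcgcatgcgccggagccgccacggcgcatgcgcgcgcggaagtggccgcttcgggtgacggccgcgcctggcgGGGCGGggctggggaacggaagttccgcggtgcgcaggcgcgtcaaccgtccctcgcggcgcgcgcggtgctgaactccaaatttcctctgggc
Rev1, chr1:38129617-38129916, reverse strand: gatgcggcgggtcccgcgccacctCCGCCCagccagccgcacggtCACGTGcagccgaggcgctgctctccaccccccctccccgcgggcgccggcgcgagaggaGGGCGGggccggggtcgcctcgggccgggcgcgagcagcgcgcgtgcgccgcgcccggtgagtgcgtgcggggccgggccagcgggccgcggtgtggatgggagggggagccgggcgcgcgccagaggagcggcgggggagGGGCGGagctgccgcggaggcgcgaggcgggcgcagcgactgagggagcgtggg
An E2F match was found in the Msh6 window alone among the 8 windows of these 7 genes, at bases 266 to 273. Of the 32851 windows of the table, 2.26% hold one. The Msh6 window also held a CCAAT box and 5 GC boxes, 3 of which overlap by their end bases. GC boxes numbered 2 in Ung, 1 in Polh, 3 in Rev1 and 1 in Trp53bp1, and 35.7% of all windows hold at least 1. The CCAAT box occurs in 37.4% of all windows, the E-box in 7.15% and the cell cycle homology region in 17.9%. Besides Msh6, a CCAAT box was found in the downstream window of Apobec3. The E-box was found in Rev1 and the homology region in Apobec1. Windows of Msh6, Ung, Polh and Rev1 were rich in G and C, at 71.7%, 64.7%, 72.0% and 83.0%, against a median of 52.7% over all windows. A match is a stretch of letters and does not show that a factor binds there.

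Levels were compared between the genes per kb of the longest coding transcript. Apobec3 stood highest, with 3381 ± 303 fragments per kb in q2 and 3575 ± 322 in q1, followed by Apobec1 with 445 ± 42.5 in q2 and 423 ± 40.5 in q1. Apobec1 exceeded Rev1, the next in order, by 2.21 combined SD in q2 and 1.58 in q1. Rev1, Msh6 and Trp53bp1 stood at 302 ± 48.3, 267 ± 44.8 and 253 ± 25.3 fragments per kb in q2, and neighbours among these 3 differed by less than their combined SD. In q1 the order of the last 2 was the other way round, with Rev1 at 321 ± 50.3, Trp53bp1 at 251 ± 25.2 and Msh6 at 194 ± 33.8, and neighbours differed by 1.25 and 1.35 combined SD. Polh followed with 133 ± 15.3 fragments per kb in q2 and 95.3 ± 12.0 in q1, Ung with 85.2 ± 12.7 in q2 and 60.002 ± 10.03 in q1, and Exo1 came last with 15.6 ± 2.67 in q2 and 8.13 ± 1.77 in q1. Reads that overlapping genes share limit some of these values, since no source states how strand was used in counting. Trp53bp1 shares 5490 bases with Tubgcp4 on the other strand, and Rev1 shares 2794 with Eif5b, which had 3024 fragments in q2 and 2921 in q1. Apobec3 shares 1462 bases with D730005E14Rik on its own strand, where strand could not separate the reads, and that gene had 206 fragments in q2 and 213 in q1.

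The deposited errors of the 8 genes were not all of 1 kind. For Exo1, Ung, Polh, Apobec1 and Apobec3 the coefficient of variation in q2 was 0.995 to 1.01 times the median of genes with about the same count, so that their SD carries little information of its own. Msh6 and Rev1 had larger ones, at 16.8% in q2 and 17.4% in q1 for Msh6 and 16.0% in q2 and 15.7% in q1 for Rev1. The medians of genes with like counts were 9.41% in q2 and 9.91% in q1 for Msh6 and 9.26% in q2 and 9.19% in q1 for Rev1. A coefficient at least 1.5 times that median was found for 5.44% of genes compared in each column. With the SD taken from that median, the Msh6 ratio of 0.46 would be 2.34 SD from 0 in place of 1.32. The file does not say if a variance belongs to single libraries or to their average.

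**Figure D3:**
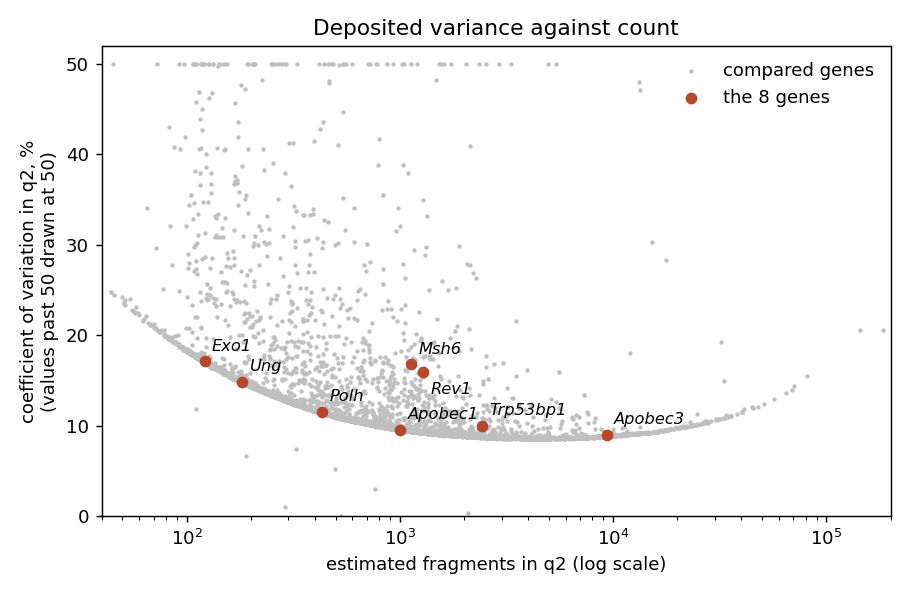
Coefficient of variation of the estimated count in q2 (in percent, values past 50 drawn at 50) against the count (log scale) for the genes compared, with the 8 genes marked. Most genes form a narrow lower edge, on which Exo1, Ung, Polh, Apobec1 and Apobec3 lie, while Msh6 at 16.8% and Rev1 at 16.0% lie above it.

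Beyond the 8 genes, differences in the repair pathways lay mostly on the q2 side. Across 7 lists of repair genes and related factors, 89 genes reported other than the 8 were compared, of which 61 were higher in q2 and 28 in q1. These lists too were chosen with earlier results of these data known. Of all genes compared, 50.2% were higher in q2 and 49.8% in q1, shares that also apply to the counts for each list below. Many of the ratios were small: the median of the 89 was 0.09, and their middle 50% lay between -0.03 and 0.34. At least 2-fold higher in q2 were 4 of them, beside 1.84% of all genes, and 0 were at least 2-fold higher in q1, beside 0.438%. The 4 were Neil3, Lig1, Bard1 and Rad54l, of which 3, all but Lig1, reached 100 fragments in q2 alone. Neil3, a glycosylase for oxidised bases, had 157 fragments in q2 and 32.6 in q1, at 2.23 ± 0.45. Lig1, the ligase of replication and long-patch repair, had 730 fragments in q2 and 330 in q1, at 1.14 ± 0.25. Neil1, which also removes oxidised bases, had 377 fragments in q2 and 220.5 in q1, at 0.77 ± 0.26.

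In mismatch repair, 15 of the 16 genes reported were higher in q2 and 1 in q1, 0 by 2-fold, with a median log2 ratio of 0.40, or 0.36 without Msh6 and Exo1. Much of this list also serves replication: 10 of its genes are Pcna, the clamp loader subunits Rfc1 to Rfc5, the single-strand binding subunits Rpa1 to Rpa3 and the polymerase delta subunit Pold1. All 10 were higher in q2, with a median of 0.41, though Rfc2 was near equal at 0.01 ± 0.18. The 4 others reported besides Msh6 and Exo1 had a median of 0.05, with Msh3, which binds larger mismatch loops, at 0.26 ± 0.27, the endonuclease subunit Pms2 at 0.09 ± 0.22, Pms1 at 0.01 ± 0.27 and Mlh3, a further MutL homolog, at -0.13 ± 0.23. These 4 and Rfc2 were named, and the division made, after the values were seen. Msh6 at 0.46 and Exo1 at 0.93 are in neither median, so 0.05 does not describe all mismatch repair genes outside replication. The part of replication in the ratios of this list was not tested. The largest ratios besides those of the 8 were of clamp loader subunits. Rfc1 had 1910 fragments in q2 and 1354 in q1, at 0.50 ± 0.18. Rfc4 stood at 0.50 ± 1.68, with an SD larger than its value, and Rfc5 at 0.47 ± 0.26. The sliding clamp Pcna, which is also on the cell cycle list, had 2218 fragments in q2 and 1656 in q1, at 0.42 ± 0.18. The base excision list had 12 of 17 genes higher in q2 and a median of 0.12.

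Homologous recombination had 11 of the 15 genes reported higher in q2 and a median of 0.21. Bard1, the partner of BRCA1, stood at 1.09 ± 0.35, and Rad54l, a motor protein that moves along DNA, at 1.04 ± 0.61. Brca1 itself stood at 0.88 ± 0.27. The list of break response and end joining, which includes Trp53bp1, had a median of 0.04, with 14 of 20 genes higher in q2 and 0 at least 2-fold apart. It was led by H2afx, the histone variant phosphorylated at breaks, with 692 fragments in q2 and 412 in q1, at 0.75 ± 0.22. Nbn, of the break-sensing complex with MRE11 and RAD50, stood at 0.43 ± 0.26, and Lig4, the ligase of end joining, at 0.38 ± 0.26.

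Translesion synthesis genes had a median of 0.10, with 8 of 13 higher in q2, or 11 when the columns were scaled to equal totals. After Polh, the largest ratios were those of Polq, the polymerase of microhomology-mediated joining, at 0.41 ± 0.26, Usp1, a protease that removes ubiquitin from the clamp, at 0.38 ± 0.19, and Rad18, the ligase that adds it, at 0.29 ± 0.28. The list of transcription elongation, RNA exosome and chaperone factors had a median of -0.03, with 6 of 14 genes higher in q2. The chaperone Dnaja1 stood at 0.35 ± 0.23, the exosome subunit Exosc3 at 0.19 ± 0.23, and Rnf126, a ubiquitin ligase, at -0.14 ± 2.77.

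**Figure D4:**
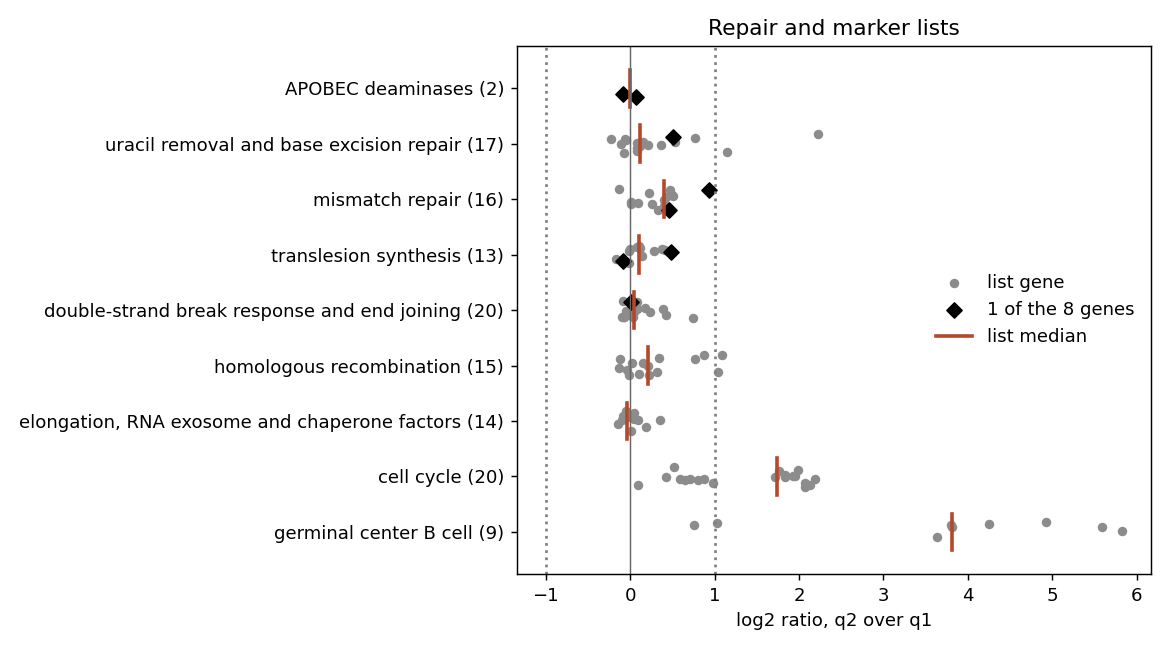
Log2 ratio of q2 over q1 for each gene with at least 100 fragments in 7 lists of repair genes and related factors and in 2 marker lists, with the number of genes compared in parentheses. Diamonds are the 8 genes, the vertical strokes are list medians, and the dotted lines are at 2-fold; mismatch repair has a median of 0.40 and the cell cycle list one of 1.74.

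Markers of other B cell states and of other cells differed between the columns too, and their part in the values of the 8 genes was not tested. The marker lists were chosen with earlier results of these data known, so their counts and medians are not an independent check of cell state. The cell cycle list had all 20 genes higher in q2. For 11 the difference reached 2-fold, 6 of them genes that reached 100 fragments in q2 alone, the median was 1.74, and the list summed to 23052 fragments in q2 and 10863 in q1. The proliferation antigen Mki67 had 4991 fragments in q2 and 1190.3 in q1, and Top2a had 2344 in q2 and 658 in q1. Germinal center genes were higher in q2 for all 9 reported, with a median of 3.81, and 8 passed 2-fold. Of those 8, 7 reached 100 fragments in q2 alone, so the minimum itself favoured a difference on that side. The list, with 1 gene under the minimum, summed to 3048 fragments in q2 and 750.001 in q1, or to 1917 in q2 and 197 in q1 without Bcl6. Bcl6, the master regulator of this state, was the 1 past 2-fold that reached the minimum in both columns, with 1130.5 fragments in q2 and 553 in q1, at 1.03 ± 0.21. Mybl1, a MYB family transcription factor, had 394 in q2 and 19.7 in q1, at 4.25 ± 0.49, and Nuggc, a nuclear GTPase, had 356 in q2 and 10.7 in q1, at 4.93 ± 0.59. Of 9 plasma cell genes compared, 8 were higher in q2, and 7 passed 2-fold, 2 of which reached the minimum in q2 alone. Among all genes compared, 1.84% passed 2-fold on the q2 side. The list, with 1 gene under the minimum, summed to 55438 fragments in q2 and 18753 in q1. Igj, with 33006 fragments in q2 and 3234 in q1, made up much of the q2 sum. The 1 gene higher in q1 was Irf4, with 8357 fragments in q2 and 10113 in q1, at -0.28 ± 0.18. The 9 marginal zone and B cell genes reported were all higher in q1 and 0 by 2-fold, with a median of -0.20. Their sums were 195998 fragments in q2 and 221608 in q1. Of these 9, 3 lay past 2 deposited SD on the q1 side, beside 2.11% of all genes compared. They were Cd9 at -0.86 ± 0.19, Cd1d1 at -0.77 ± 0.18 and S1pr3 at -0.62 ± 0.18, named after their values were seen. Of 9 T cell markers in the table, 2 reached the minimum, both higher in q2, with sums of 1241 fragments in q2 and 859 in q1. The 2 were Lck, a kinase of T cell receptor signalling, with 689 fragments in q2 and 524 in q1, and the costimulatory receptor Cd28, with 165 in q2 and 30.3 in q1. Cd28 is also on the plasma cell list and reached the minimum in q2 alone. The defining genes Cd3d, Cd3e and Cd3g, named after their values were seen, had 33.7, 36.4 and 47.9 fragments in q2 and 25.9, 22.8 and 34.5 in q1. Of 8 macrophage and monocyte genes compared, 6 were higher in q1 (5 past 2-fold, beside 0.438% of all genes compared) and 2 in q2. All 5 reached the minimum in q1 alone and the 2 in q2 alone, so the minimum favoured a difference for each. The list had sums of 954 fragments in q2 and 1315 in q1. Csf1r, the receptor that macrophages need to survive, had 78.8 fragments in q2 and 188 in q1, and the monocyte gene Ly6c2 had 208 in q2 and 59.4 in q1. Emr1, a macrophage gene that was also higher in q2, had 146 in q2 and 85.8 in q1, and was named after its values were seen. No marker gene in these lists was at 0 in either column.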

How the data were processed

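RNA was extracted with Trizol and libraries were made from total RNA with an Illumina TruSeq kit, per the labels' protocols. The submitters' processing notes name the mm10 build, Cuffdiff 2.2.1, TopHat2 2.0.14 and cutadapt 1.8.1, and the gene annotation and settings are not given there. The authors deposited, per the file headers, an estimated count of fragments per gene for each of 2 conditions, with a variance in squared fragments, and the scaling is not stated. The isoform part of the variance was 0 for every gene. The columns q2 and q1 match no label and were assigned to no group. As each condition has 1 value, size was described and nothing was tested.

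Log2 ratios of q2 over q1 used a pseudocount of 1 (differences of low genes are understated), and their SD was propagated to first order (numpy 2.4.6, pandas 2.3.3, scipy 1.17.1). Genes that reached 100 fragments in q2 or q1 were compared, and the size rule was 2-fold. Counting intervals are exact (Clopper-Pearson) on rounded counts and leave out any spread between libraries. The calculation was tested on simulated data. Positions and transcript lengths are from GENCODE M21 (GRCm38). The 8 genes and the 13 gene lists were chosen with earlier results of these data known. A few genes of these lists are not reported here and were left out of the list counts, sums and medians. Besides the 8, the genes named were the 3 largest absolute ratios of each repair list, any at least 2-fold apart, and up to 3 most abundant genes of each marker list, not all of which are printed; others are named as chosen after their values were seen. Of the list genes, 1 symbol was not matched.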

Additional observations from a re-analysis of the deposited data

How the results depend on the processing

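No paired analysis was possible because neither column is split by library or replicate; for the same reason no library was left out. With pseudocounts of 0 and 10 and with scaling to equal totals or to a median ratio of 1, all 32 recomputed log2 ratios of the 8 genes moved by less than counting error, and 0 genes changed sign; Exo1 ranged from 0.84 to 0.95. The 2-fold rule was met by 0 of the 8 genes, and the 1.5-fold rule by 1 (Exo1). The number past 2 SD was 1 (Exo1), became 0 with a minimum of 500 fragments, which removes Exo1, and 2 with equal totals, where Polh joined it. It was also 2 with the SD from the running median coefficient of variation, where Msh6 joined it; this alternative was chosen after seeing the data. Over the whole table, the 2-fold rule gave 176 genes on the q2 side and 42 on the q1 side. A minimum of 20 fragments gave 346 and 102, one of 500 gave 39 and 14, and the counts were 325 and 151 under the 1.5-fold rule, since more or fewer genes qualify. The 36 list medians that were computed again all stayed within the counting error of a typical gene of their list, but with a minimum of 500 fragments that of base excision was 0.21 in place of 0.12, and that of homologous recombination 0.13 in place of 0.21. With a minimum of 500 fragments fewer genes were compared, and the numbers higher in q2 were 5 for base excision, 8 for mismatch repair, 5 for translesion synthesis and 4 for homologous recombination. With equal totals, which adds 0.02 to each log2 ratio, translesion synthesis had 11 of 13 genes higher in q2 in place of 8. The planned tests on values per library were not run. Depth limits Exo1 and Ung most, whose counts are lowest, and the spread between mice cannot be seen.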
